A study of Mus musculus with 2 samples.

Results

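The subject is a set of 6 small nuclear RNA (snRNA) genes, Gm24407, Gm24265, Gm22513, Gm26316, Gm25360 and Gm22973, in mouse embryonic stem cells. They were chosen from the deposited expression table as short snRNA genes of 3 gene lengths that were abundant and lower in the library labelled Mettl8 siRNA than in the library labelled scramble siRNA. The table holds 50508 genes, of which 1382 are snRNA genes in GENCODE M21 and 55 of these have one of the 3 lengths. The shortest length is that of Gm24407 and Gm24265, the middle one is that of Gm22513 and of the named U1 gene Rnu1a1, and the longest is that of Gm26316, Gm25360, Gm22973 and the named U2 gene Rnu2-10. They are called the Gm24265 length, the U1 length and the U2 length here. The direction of the difference was used to choose the 6 genes, so it is described here and not tested. The least abundant of the 6, Gm22513, rested on 1252 reads over both libraries, and the most abundant snRNA genes outside the set were Gm23497 with 952 reads and Gm25813 with 488.

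The cells were E14 mouse embryonic stem cells of strain 129/Ola, between passages 15 and 18, kept on gelatin in medium that held leukemia inhibitory factor at 1000 U/ml and 15% serum. Both groups were transfected with an siRNA by lipofection, a scramble siRNA in one and an siRNA against Mettl8 in the other, and total RNA was taken 72 h later. With 1 library in each group there is no replicate error, and the groups could not be tested against each other. Whether the RNA was selected for poly(A) tails, which snRNAs lack, is not given in the sources used here. Mettl8, a methyltransferase gene and the target of the siRNA, had a level of 100.3 in the library labelled Mettl8 siRNA and 0.67 in the other, in FPKM (fragments per kilobase of gene, scaled to the depth of the library). The targeted gene was thus far higher, not lower, in the library named for its siRNA, and every direction below is that of a library by its label. Paired values are given with the library labelled scramble siRNA first. The stem cell genes Pou5f1 (155.3 and 163.5 FPKM), Nanog (175 and 173) and Sox2 (94.8 and 85.8) were abundant in both libraries, while the fibroblast markers Col1a1, Col1a2, Col3a1, Thy1 and Postn were all under 1 FPKM.

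The spliceosome removes introns from messenger RNA precursors, and its core parts are snRNAs bound by proteins. U1 snRNA pairs with the 5′ splice site, U2 snRNA with the branch site, and U4 snRNA arrives paired with U6 snRNA and joined to U5. Mammalian genomes hold many copies of each snRNA gene, some of them active and many of them pseudogenes. RNA polymerase II transcribes the genes of U1, U2, U4 and U5, the Integrator complex cuts the transcript ends, and the SMN complex loads a ring of Sm proteins onto the RNA in the cytoplasm.

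The transcripts of the 6 genes are printed here because their few distinguishing bases decide to which copy a sequencing read can be assigned. All sequences are GENCODE M21 transcripts on GRCm38, the assembly of mm10, given as DNA letters from the 5′ to the 3′ end, and all 6 genes lie on the plus strand. In the pair of Gm24265 length, capitals mark the bases of Gm24407 that differ from Gm24265. Gm24407 lies at chr5:115490254-115490394 and Gm24265 at chr5:115489459-115489599, 654 bases apart.
Gm24407: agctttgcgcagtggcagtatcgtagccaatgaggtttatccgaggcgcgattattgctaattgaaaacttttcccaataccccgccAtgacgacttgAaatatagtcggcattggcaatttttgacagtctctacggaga
Gm24265: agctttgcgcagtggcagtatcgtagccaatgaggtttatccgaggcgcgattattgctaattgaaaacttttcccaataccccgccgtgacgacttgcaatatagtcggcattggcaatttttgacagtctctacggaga
In the copy of U1 length, at chr12:54696782-54696945, the capital marks the base that differs from Rnu1a1, a named U1 gene of the same length.
Gm22513: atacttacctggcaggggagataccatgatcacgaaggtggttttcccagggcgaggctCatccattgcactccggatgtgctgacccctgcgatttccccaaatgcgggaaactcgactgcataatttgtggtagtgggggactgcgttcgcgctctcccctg
In the copies of U2 length, capitals mark bases that differ from Rnu2-10, a named U2 gene of the same length. Gm26316 lies at chr11:101604850-101605040, Gm25360 at chr1:72226240-72226430 and Gm22973 at chr12:59040335-59040525.
Gm26316: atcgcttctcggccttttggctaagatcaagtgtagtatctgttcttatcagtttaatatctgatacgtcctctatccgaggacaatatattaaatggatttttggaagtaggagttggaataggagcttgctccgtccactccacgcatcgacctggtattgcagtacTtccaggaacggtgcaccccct
Gm25360: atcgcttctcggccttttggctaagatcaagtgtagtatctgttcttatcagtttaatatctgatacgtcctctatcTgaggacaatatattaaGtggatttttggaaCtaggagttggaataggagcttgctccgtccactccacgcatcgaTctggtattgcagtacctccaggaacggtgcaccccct
Gm22973: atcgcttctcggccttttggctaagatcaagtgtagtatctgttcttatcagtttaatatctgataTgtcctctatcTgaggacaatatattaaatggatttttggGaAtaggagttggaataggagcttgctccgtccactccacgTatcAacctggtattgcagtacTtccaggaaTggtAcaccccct

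By sequence Gm22513 belongs to the U1 family and Gm26316, Gm25360 and Gm22973 to the U2 family. Gm22513 was 99.4% identical to Rnu1a1, with the single substitution T60C (the base of the reference, the position counted from 1 at the 5′ end of the transcript, and the base of the copy). Gm26316 was 99.5% identical to Rnu2-10, with C170T alone. Gm25360 had 4 substitutions against Rnu2-10, C78T, A95G, G109C and C154T. Gm22973 had 9, among them C67T, A107G and G183A, and was the least like Rnu2-10 of the 3, at 95.3%. None of the named snRNA genes is a U4 gene, so Gm24407 and Gm24265 could not be compared with one. No family name is given to them here. The pair differ by G88A and C99A in Gm24407 relative to Gm24265, which leaves 98.6% identity.

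The copies share letters that are known from working snRNAs. The run ACTTACCTG, by which U1 pairs with the 5′ splice site, starts at base 3 of Gm22513 and occurs on the transcript strand of 18 of the 33 snRNA genes of U1 length and of 3.98% of all 1382. The run GTAGTA, which pairs with the branch site in U2, starts at base 33 of Gm26316, Gm25360 and Gm22973, and occurs in 14 of the 14 genes of U2 length and in 3.69% of all. The letters ATTTNTG, part of the site bound by the Sm ring, occur once in each of the 6 copies, at base 119 in Gm24407 and Gm24265, at base 126 in Gm22513 and at base 99 in the U2-family copies, and in 20.5% of all snRNA genes. On the opposite strand these runs occur in 0%, 1.16% and 12.7% of all snRNA genes, and in none of the 6. Gm24407 and Gm24265 also hold runs complementary to the U6 gene Rnu6. Bases 5 to 12 of both copies are complementary to bases 63 to 70 of Rnu6, and bases 56 to 62 to bases 50 to 56. A further run, at bases 117 to 123, overlaps the Sm letters. A run of 8 complementary bases is not particular to the pair, because Gm22513 holds one at bases 77 to 84. A match of letters describes the sequence and shows no binding.

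None of the 6 genes overlaps another GENCODE gene, exonic or intronic. Gm22513 has 6 other U1-family copies within 100000 bases, Gm26316 has 4 U2-family copies, Rnu2-10 among them, and Gm25360 has 3. Gm24265 and Gm24407 have each other, and Gm22973 has no copy of its family within that distance. The nearest protein-coding genes are Sirt4 for Gm24407 and Gm24265, Eapp for Gm22513 at 884 bases, Mreg for Gm25360 at 13932 bases and Trappc6b for Gm22973 at 2566 bases, and all of these lie on the minus strand.

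All 6 copies were abundant in both libraries, and each was lower in the library labelled Mettl8 siRNA, as the choice required. Gm25360, a U2-family copy, had 1202 FPKM under the scramble label and 832 FPKM under the Mettl8 siRNA label, from 6532 and 4419 reads. Gm22973, the most divergent of the U2-family members, was 1119 and 822 FPKM, from 6085 and 4367 reads. Gm26316, the U2-family member with a single substitution, was 320 and 205 FPKM, from 1742 and 1089 reads. The U2-family copies thus spanned the most abundant and the second least abundant of the set. Gm24265 was 698 and 430 FPKM, from 2803 and 1688 reads. Its neighbour Gm24407 was 454 and 269 FPKM, from 1822 and 1056 reads. Gm22513, the U1-family copy, was 167 and 104 FPKM, from 779 and 473 reads. The order of the levels was the same in both libraries, Gm25360 first and Gm22513 last. FPKM is a level per length, and the order of the copies holds for the reads as assigned to them, which is uncertain between near-identical copies. Exact Poisson intervals at 95% separated neighbours in this order in both libraries, with 1 exception. In the library labelled Mettl8 siRNA the intervals of Gm25360 (807 to 857 FPKM) and Gm22973 (798 to 847 FPKM) overlapped. These intervals, and those of ratios below, cover counting error only. In RNA from a whole culture, a lower level in every cell and a loss in some of the cells cannot be told apart.

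**Figure D1:**
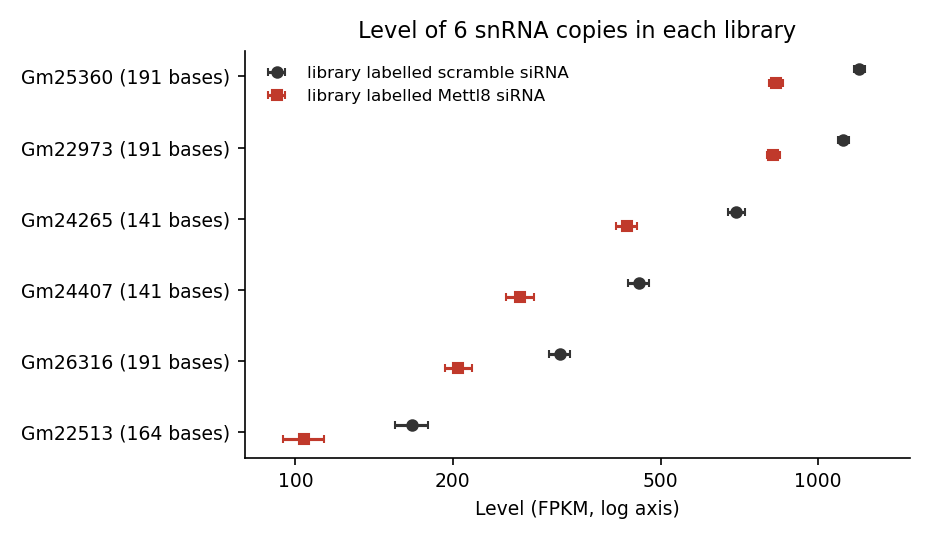
Level in FPKM (log axis) of the 6 snRNA copies in the library labelled scramble siRNA (circles) and the library labelled Mettl8 siRNA (squares), with exact Poisson 95% intervals that cover counting error only and 1 library per group. Each copy has its square to the left of its circle, from 1202 to 832 FPKM for Gm25360 down to 167 to 104 FPKM for Gm22513.

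Ratios of the library labelled Mettl8 siRNA over the other lay between 0.593 and 0.734 across the 6 copies. The ratio was 0.593 for Gm24407 (exact Clopper-Pearson 95% interval 0.549 to 0.640) and 0.616 for Gm24265 (0.580 to 0.655). It was 0.621 for the U1-family copy Gm22513 (0.553 to 0.697). Among the U2-family copies it was 0.640 for Gm26316 (0.592 to 0.690), 0.692 for Gm25360 (0.666 to 0.719) and 0.734 for Gm22973 (0.706 to 0.764). The intervals of Gm24407, Gm24265, Gm22513 and Gm26316 overlapped one another, while that of Gm22973 lay above the intervals of these 4. On the log2(FPKM + 1) scale, used for all differences below, the 6 differences ran from -0.75 to -0.45 with a median of -0.66. On this scale 6 of 6 copies were at least 1.2-fold lower, where 5.01% of the 13243 genes that averaged 1 FPKM or more and 0.853% of the 6096 genes with at least 1000 reads were. At least 1.5-fold lower were 4 of 6, against 1.05% and 0.0984%, and at least 2-fold lower were 0 of 6, against 0.287%. In the upward direction the shares of the 13243 genes were 4.48%, 1.06% and 0.355% at the same folds. Of the 6096 genes, 0.492% were at least 1.2-fold and 0.0328% at least 1.5-fold higher. With both libraries scaled to the same FPKM sum, 3.28% of the 13243 genes were at least 1.2-fold lower and 8.62% higher. At that scaling 6 of 6 copies were at least 1.2-fold and 3 of 6 at least 1.5-fold lower. Nothing is read from these shares, because the copies were chosen for being lower.

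Length class and sequence family are the same division within the 6 copies, and the copies of U2 length varied among themselves about as much as the classes did. Summed over members, the depth-scaled reads of Gm24407 and Gm24265 had a ratio of 0.607 (0.579 to 0.637) and those of the U2-length copies 0.704 (0.686 to 0.722), beside 0.621 (0.553 to 0.697) for Gm22513. The intervals of Gm24407 with Gm24265 and of the U2-length copies did not overlap. The U2-length sum is carried by Gm25360 and Gm22973, however, and the third copy, Gm26316, had a ratio near those of the shorter copies. GC content ran from 41.9% in Gm22973 to 56.1% in Gm22513, and these are the copies with ratios of 0.734 and 0.621.

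The other copies of the same lengths held few reads. Of the 49 snRNA genes of the 3 lengths outside the set, 14 had 0 reads, 14 reached a mean FPKM of 1, and none reached 1000 reads. Together they had 653 and 450 reads, a ratio of 0.705 (0.624 to 0.796). Gm25813, a U2-family copy on the minus strand of chromosome 8, held the most reads among them. It was 57.2 and 33.3 FPKM, from 311 and 177 reads, a ratio of 0.582 (0.481 to 0.703). Without Gm25813 the ratio of the others was 0.817 (0.694 to 0.960) at the deposited scaling. The next U2-family copy, Gm25939, is a neighbour of Gm25360 and was 11.8 and 7.34 FPKM, a ratio of 0.623 (0.408 to 0.943). Of the 14 copies at a mean FPKM of 1, 8 were 1.2-fold lower or more and 3 were higher by that much, against 5.01% and 4.48% of all genes. Among these copies the ratio interval lay below 1 for Gm25813 and Gm25939, above 1 for Gm24950 (described below), and held 1 for the rest.

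The named U1 and U2 genes gave too few reads to place a difference. Rnu1a1 was 4.28 and 1.97 FPKM, from 20 and 9 reads, a ratio of 0.460 (0.185 to 1.06). Rnu2-10 was 6.25 and 3.58 FPKM, from 34 and 19 reads, a ratio of 0.572 (0.308 to 1.03). Rnu2-10 has the same sequence as 3 other genes, Gm23971 (6.99 and 7.72 FPKM), Gm23849 (4.23 and 3.58) and Gm24950 (1.10 and 3.01). A pair of these 4 genes was higher and a pair lower in the library labelled Mettl8 siRNA. Their summed reads were 101 and 95, a ratio of 0.962 (0.720 to 1.29), an interval that holds 1 and also the ratio of Gm22973, but not those of Gm25360 and Gm26316. Identical copies cannot be told apart by their reads, and the treatment of reads that match several places is not given in the sources used here, so the reads of single copies, the near-identical members included, are uncertain. The 7 genes identical to Rnu1a1 had 38 and 26 reads in all, a ratio of 0.700 (0.408 to 1.18). For the U2 family outside the set, 14 copies in all, the ratio of summed reads was 0.688 (0.603 to 0.784), and without Gm25813 it was 0.815 (0.675 to 0.982). For the 59 U1-family copies outside the set it was 0.796 (0.616 to 1.03).

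**Figure D2:**
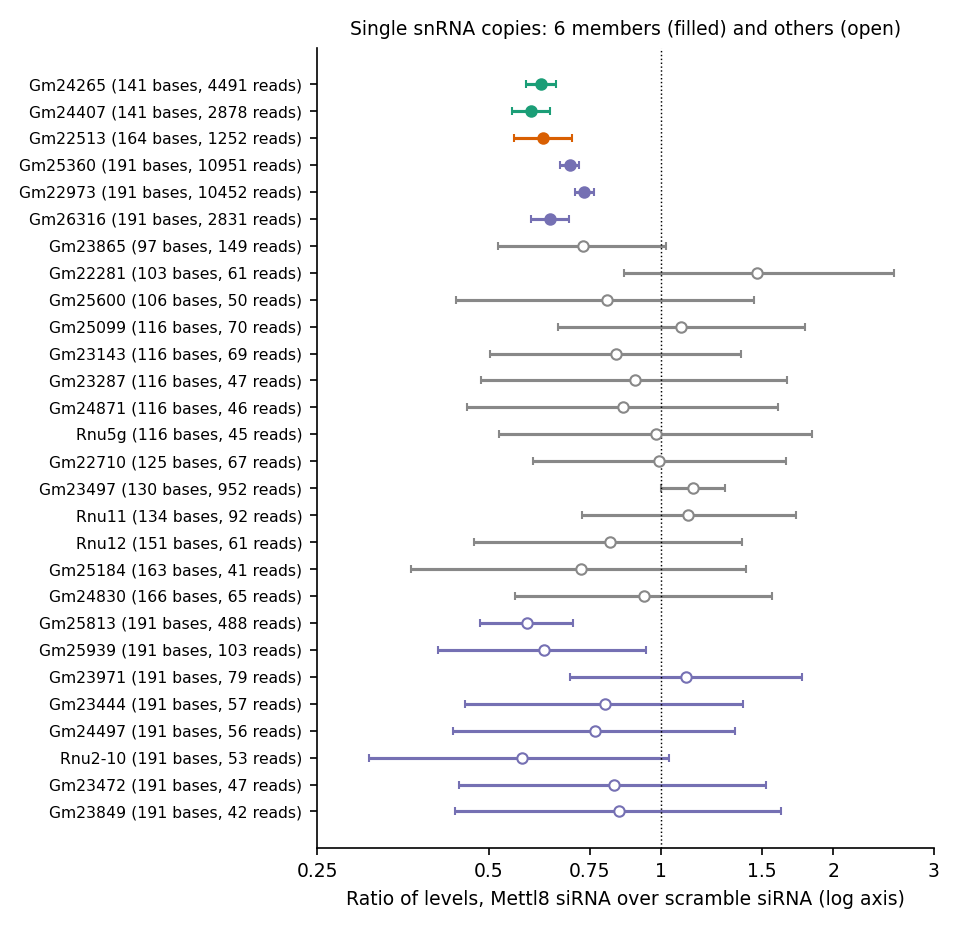
Ratio of levels, Mettl8 siRNA label over scramble label (log axis), for the 6 members (filled) and for other snRNA genes that averaged 1 FPKM or more and had 40 or more reads (open), with exact Clopper-Pearson 95% intervals that cover counting error only; green, orange and violet mark the Gm24265, U1 and U2 lengths and grey other lengths. The 6 members have narrow intervals between 0.549 and 0.764, Gm25813 lies at 0.582, and most other copies have intervals that hold 1.

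The copies also differed in how much sequence they have of their own. Each transcript was divided into all its windows of 50 bases, and a window was called its own when it occurred in no transcript of another GENCODE gene on either strand. The read length is not given in the sources used here, so 50 bases is a chosen value, and loci outside the annotation were not searched. The 6 members each had some windows of their own, 88.0% of them in Gm22973, 62.0% in Gm25360, 58.7% in both Gm24407 and Gm24265, 41.7% in Gm22513 and 15.5% in Gm26316. The 14 copies of the 3 lengths with no window of their own, the named genes Rnu1a1 and Rnu2-10 included, held between 0 and 79 reads with a median of 18. At the other end, the 21 copies that had only windows of their own held between 0 and 15 reads with a median of 0. The 20 copies in between had a median of 13.5 reads. Of them, 6 had at least 1000 reads, and these are the 6 members, which were chosen for being abundant. No relation of reads to windows is read from this. Among the U2-length copies, Gm25813 and Gm25939 had 58.5% and 41.5% of windows of their own and held 488 and 103 reads.

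**Figure D3:**
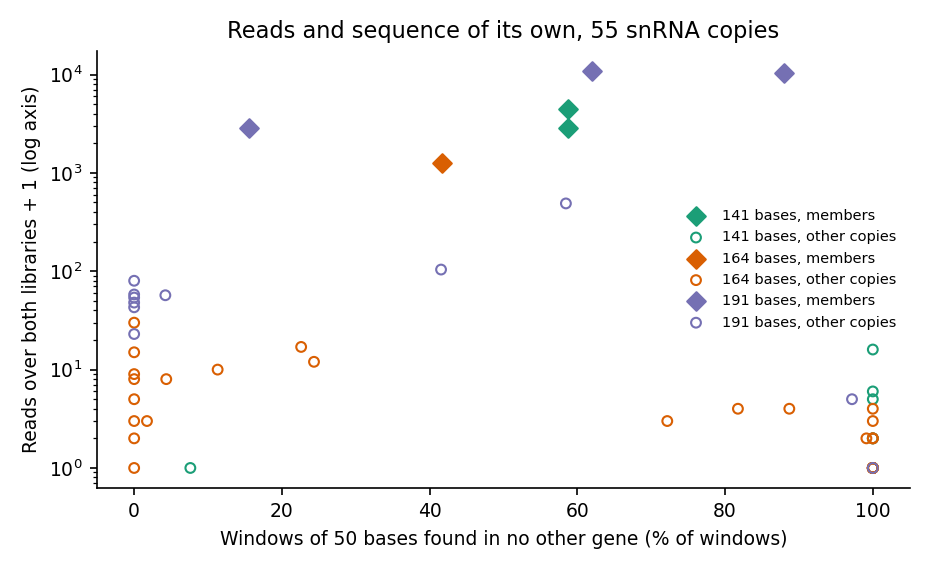
Share of 50-base windows found in no other GENCODE gene (horizontal axis, %) against reads over both libraries plus 1 (log axis) for the 55 snRNA genes of the 3 lengths; diamonds are the 6 members and circles the 49 other copies. The members, chosen for being abundant, lie above 1000 reads between 15.5% and 88.0%, while copies at 0% or 100% stay below 100 reads.

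Outside the 3 lengths the summed snRNA reads were not lower. The 1327 snRNA genes of other lengths had 1862 and 1935 reads in all, a ratio of 1.06 (0.997 to 1.13). Of these reads, Gm23497, a gene of 130 bases, held 451 and 501, at 122 and 139 FPKM and a ratio of 1.14 (0.999 to 1.29). Without Gm23497 the ratio of the sum was 1.04 (0.965 to 1.12). The next in reads, Gm23865, a gene of 97 bases, had a lower value. It was 31.5 and 23.0 FPKM, from 87 and 62 reads, a ratio of 0.729 (0.518 to 1.02). Of the 1327 genes, 837 had 0 reads. U6 is the catalytic snRNA transcribed by RNA polymerase III. The 514 copies assigned to its family at 80% identity had 388 and 439 reads, a ratio of 1.16 (1.01 to 1.33). Of these copies 307 had 0 reads and 40 averaged 1 FPKM or more, and the named gene Rnu6 had 0 and 1 reads. The sum thus comes from many copies of few reads each, and the level of working U6 snRNA cannot be read from it. The U5 family had 166 and 154 reads over 11 copies, a ratio of 0.949 (0.757 to 1.19), with Rnu5g at 6.97 and 6.82 FPKM. The intervals of these families did not overlap those of the summed members of any of the 3 lengths. In the minor spliceosome, which removes a rare class of introns, Rnu11 was 11.5 and 12.9 FPKM and Rnu12 was 7.91 and 6.43 FPKM, on fewer than 100 reads each. Rnu7, the histone pre-mRNA processing snRNA, was 4.53 and 4.06 FPKM. Of the 11 genes with an Rnu symbol that averaged 1 FPKM or more, U3 and other nucleolar RNA genes included, 5 had a higher value and 6 a lower one; the median was -0.027, and 0.055 at the same FPKM sum. Over all 121 snRNA genes outside the set that averaged 1 FPKM or more, which had a median of 13 reads, 35 were 1.2-fold lower or more and 38 were higher by that much, against 5.01% and 4.48% of all genes. Their median difference was 0.014, beside 0.013 for all genes. Of the 121, 4 had a ratio interval below 1, 2 had one above 1, and the rest had intervals that hold 1. Of the 22 that averaged 5 FPKM or more, 8 were at least 1.2-fold lower and 1 was higher by that much, with 3 intervals below 1 and 0 above. As a share of all reads in genes, snRNA genes held 0.100% and 0.0723%, and the 6 members supplied 88.7% and 84.6% of the snRNA reads.

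**Figure D4:**
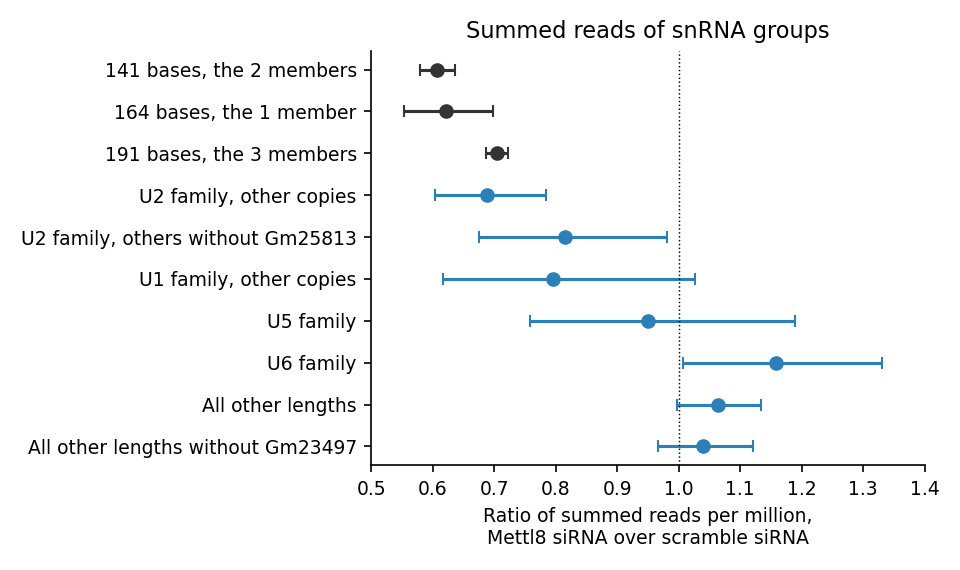
Ratio of summed depth-scaled reads, library labelled Mettl8 siRNA over library labelled scramble siRNA, for the members by length (black) and for other snRNA groups (blue), with exact Clopper-Pearson 95% intervals that cover counting error only. The members lie between 0.607 and 0.704, and the other U2-family copies at 0.688 with Gm25813 and 0.815 without it. The U6 family, of which most copies had 0 reads, lies at 1.16.

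Some other short RNAs were lower by a similar amount. The 5 genes with at least 1000 reads whose differences were nearest to the members' median, over 2 libraries, were Snord17, Gm25732, Gm25835, Cox6b2 and Gm24245. Snord17, a small nucleolar RNA of 238 bases, was 456 and 280 FPKM (difference -0.70). Gm25732, annotated as a microRNA of 60 bases, was 1106 and 720 FPKM (-0.62), and Gm24245, another of 57 bases, was 610 and 447 FPKM (-0.45). Gm25835, a small nucleolar RNA of 144 bases, was 397 and 272 FPKM (-0.54), and Cox6b2, a cytochrome c oxidase subunit gene, was 19.8 and 13.4 FPKM (-0.53). Likeness over 2 libraries is only likeness of 1 difference. Among the 6096 genes with at least 1000 reads, the members held ranks 1, 3, 4, 5, 9 and 11 from the lowest difference. They were chosen for being abundant and lower, so nothing is read from these ranks. Rnu3a, which encodes the U3 RNA of ribosomal RNA processing, was 563 and 417 FPKM, with a ratio of 0.741 (0.703 to 0.780). The low U3 copies Rnu3b1 (4.88 and 6.32 FPKM), Rnu3b3 (1.95 and 2.83) and Rnu3b4 (0.98 and 1.66) had higher values in the library labelled Mettl8 siRNA, with intervals of the ratio that hold 1. Rnu73b, a small nucleolar RNA gene, was 13.9 and 16.2 FPKM.

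The median difference of other short non-coding genes varied between length classes without a steady order, and values for each class are given beside the members. Kinds of RNA were not separated within these classes. Of the non-coding genes outside the set with at least 100 reads, those of 50 to 99 bases had a median difference of 0.023 (73 of 166 lower). Those of 100 to 149 bases had -0.077 (80 of 127 lower), those of 150 to 199 bases -0.23 (15 of 21 lower) and those of 200 to 249 bases -0.062 (8 of 13 lower). At least 1.5-fold lower were 1 of 166, 0 of 127, 4 of 21 and 1 of 13 of these genes in the order of length. The 4 of 21 include the U2-family copies Gm25813 and Gm25939 described above. The others were Gm22767, a small Cajal body RNA gene (-0.65), and Snora23, a small nucleolar RNA gene (-0.60). Of the members, Gm24407 and Gm24265 fall in the class of 100 to 149 bases and the other 4 in that of 150 to 199 bases, and nothing is read from their place beside the medians because they were chosen for being lower. Whether the length of an RNA had a part in the members' differences was not tested. The longer structured RNAs Rn7sk, Rpph1 and Rmrp had differences of 0.042, -0.056 and -0.27, smaller in size than those of the members. That of Rmrp was larger in size than the median of each length class above. Rn7sk, the RNA that restrains a transcription elongation factor, was 14341 and 14762 FPKM, Rpph1, the RNA of RNase P, was 8620 and 8292 FPKM, and Rmrp, the RNA of RNase MRP, was 15273 and 12707 FPKM, a ratio of 0.832 (0.825 to 0.839).

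**Figure D5:**
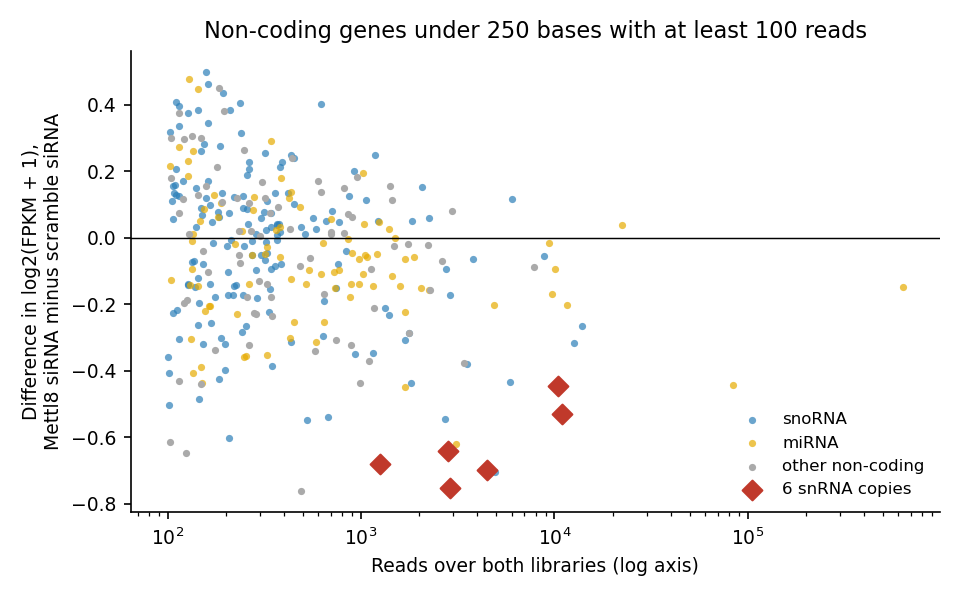
Difference in log2(FPKM + 1), library labelled Mettl8 siRNA minus library labelled scramble siRNA, against reads over both libraries (log axis) for short non-coding genes (under 250 bases, 100 reads or more). The 6 snRNA copies (red diamonds) lie between -0.75 and -0.45 at 1252 to 10951 reads, where most small nucleolar RNA (blue), microRNA (yellow) and other non-coding genes (grey) lie nearer 0.

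Genes of the proteins that bind, assemble and transcribe snRNAs had similar levels in both libraries. Of 94 measured genes in 7 lists, 70 were higher and 24 lower in the library labelled Mettl8 siRNA, and 1 in each direction passed 1.2-fold. Among all 9965 protein-coding genes that averaged 1 FPKM or more, 5432 were higher, and 1.03% passed 1.2-fold upward and 1.58% downward. The median was 0.064 over the 94 genes and 0.013 over all protein-coding genes.

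The proteins of U1 and U2 snRNPs showed no difference of 1.2-fold. The U1 list had a median of 0.0066 over 3 genes (-0.0061 with the median of all genes set to 0), with Snrnp70 at 13.6 and 14.6 FPKM, Snrpa at 18.5 and 18.0 and Snrpc at 3.36 and 3.38. The U2 list had a median of 0.068, with 11 of 14 higher. Its highest differences were those of Snrpb2 (13.8 and 15.9 FPKM) and U2af2, which binds the polypyrimidine tract (34.1 and 38.0). Its lowest were those of Sf3a2 (8.83 and 8.52 FPKM) and Sf3b2 (49.6 and 49.2), at -0.046 and -0.012. The Sm ring proteins, shared by U1, U2, U4 and U5, had a median of 0.024 with 4 of 8 higher. Snrpe was 39.95 and 45.8 FPKM, Snrpd1 60.7 and 67.1, Snrpb 42.7 and 41.2, and Snrpn 25.1 and 24.5.

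The remaining lists hold the proteins of U4/U6, of assembly and of transcription. The U4/U6 and tri-snRNP list had a median of 0.029 with 8 of 13 higher, from Usp39 (22.6 and 26.0 FPKM) and Snu13, which binds U4 RNA (25.1 and 28.8), to Snrnp200, the helicase that unwinds U4 from U6 (37.9 and 36.0), and Sart3 (7.08 and 6.75). The LSm ring, which binds the U6 end, had a median of 0.082 with 6 of 7 higher, from Lsm7 (7.33 and 8.53 FPKM) and Lsm4 (39.0 and 42.6) to Lsm5 (16.5 and 15.6). Lsm3 was 12.5 and 12.8 FPKM. The assembly and transport list had a median of 0.059 with 17 of 21 higher. Within it, the SMN complex genes Ddx20 (18.1 and 20.8 FPKM) and Gemin4 (11.01 and 12.7) had the highest differences. The lowest were those of Gemin8, of the same complex (1.54 and 1.42 FPKM), and Snupn, the snRNP import adaptor (7.30 and 7.08), at -0.070 and -0.039. The list of snRNA transcription and end formation had a median of 0.091 with 22 of 28 higher. It held both genes past 1.2-fold, Zc3h8, which is part of the little elongation complex (2.90 and 3.90 FPKM, ratio 1.34, 1.07 to 1.70), and Zfp143, a transcription factor of snRNA promoters (5.51 and 4.39 FPKM, ratio 0.796, 0.700 to 0.906). The Integrator genes Ints6 (9.18 and 11.1 FPKM) and Ints1 (7.20 and 6.44) came next in the upward and the downward direction.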

How the data were processed

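Total RNA of 2 libraries, 1 per group, was sequenced, and the authors deposited FPKM values rounded to 2 decimals with a gene length for each gene (141 bases for Gm24407 and Gm24265, 164 for Gm22513 and 191 for the 3 U2-family members). Per the submitters' processing notes, STAR 2.4.0i, featureCounts 1.5.0-p1 and the mm10 build were used; the sources used here give no settings, annotation or strand choice. The series record speaks of triplicates, while the table has 1 column per group.

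Reads were rebuilt from FPKM multiplied by length. Among genes under 400 bases with fewer than 30 reads, 100% of values were whole within rounding plus 0.005 reads. The denominators were about 28460000 and 27820000 reads, of which 22213603 and 21419301 lay in genes. Ratios carry exact Clopper-Pearson and levels exact Poisson intervals at 95%. Differences are log2(FPKM + 1), which understates low genes. A mean FPKM of at least 1 and a 1.2-fold difference were the rules of size. No p-value was computed.

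Families were assigned at 80% identity to a named snRNA gene by global alignment (Biopython 1.88). GENCODE M21 held 94.3% of the table's symbols, and its lengths equalled the deposited ones for all 1382 snRNA genes. Named genes are the members, other copies of their lengths with at least 1000 reads (none), Rnu genes at a mean FPKM of at least 1, Rn7sk, Rmrp, Rpph1, the 2 largest differences each way in each protein list, and 5 genes of nearest difference. Other copies, among them Gm25813, Gm25939, Gm23497, Gm23865 and those identical to Rnu2-10, were named after their values were seen. The values of Gm22767, Snora23 and Rnu6 were also added after they were seen. Members and lists were chosen with earlier results of these data known. The denominators, the rebuilt reads, the 1.2-fold rule and the ratio intervals were tested on simulated reads with counting error only. The other steps were not tested in this way.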

Additional observations from a re-analysis of the deposited data

How the results depend on the processing

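The 6 copies were lower under each of the 4 alternative settings run for them (a pseudocount of 0.1 and 3 other scalings). Rescaling both libraries to the same FPKM sum raised the median of all genes from 0.013 to 0.089 and gave -0.60 for Gm24265, -0.44 for Gm25360 and -0.35 for Gm22973, outside their counting intervals; relative to all genes the members' median was -0.66 there and -0.68 as reported. It left 6 of 6 copies past 1.2-fold and 3 of 6 past 1.5-fold. It also raised the medians of the U2 protein (0.158), assembly (0.148) and transcription (0.161) lists. Ratios of reads and their intervals were given at the deposited scaling only. The same FPKM sum would multiply them by 1.067, so whether an interval that ends close to 1 holds 1 depends on the scaling. With Gm24407 and Gm24265 summed, a setting chosen after seeing the data, the median was -0.64. Without a filter the median of the other copies turned to -0.32 at the Gm24265 length (0.66 from 1 copy otherwise) and to 0.093 at the U1 length (-0.42 otherwise); the setting adds copies of very few reads. At 100 reads or more the median of the other U2-length copies was -0.69, from Gm25813 and Gm25939 alone. That of all other snRNA genes was -0.53, from 4 genes. The 41 snRNA genes lower and 38 higher became 188 and 219 unfiltered, 14 and 1 where genes averaged 5 FPKM, 9 and 0 at 100 reads, 17 and 25 at 1.5-fold, and 2 and 11 at 2-fold. Of all genes, 5.01% were lower and 4.48% higher; the shares became 7.88% and 6.95% with a pseudocount of 0.1, 3.28% and 8.62% at the same FPKM sum, 4.34% and 5.32% unfiltered, 3.41% and 2.62% where genes averaged 5 FPKM, 2.06% and 1.5% at 100 reads, 1.05% and 1.06% at 1.5-fold, and 0.287% and 0.355% at 2-fold. The other copies of Gm24265 and U1 length gave no value where genes averaged 5 FPKM or at 100 reads. The cause of these changes was not tested. No paired analysis was possible because each group has 1 library, and for the same reason no library could be left out.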

Other observations

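Small Cajal body RNAs, which guide the modification of snRNAs, were measured for 8 of the 9 genes with a Scarna symbol, with a median difference of -0.071 (0.022 with both libraries scaled to the same FPKM sum) and 3 higher and 5 lower in the library labelled Mettl8 siRNA. The most abundant, Scarna2, was 391 and 337 FPKM, a ratio of 0.863 (0.827 to 0.901), while Scarna6 was 102 and 103 FPKM and Scarna9 305 and 316 FPKM. Terc, the telomerase RNA, was 86.7 and 75.6 FPKM, a ratio of 0.871 (0.796 to 0.954). Among the other short structured RNAs, Rny1 was 31.1 and 24.4 FPKM, Rny3 23.4 and 20.4, Rprl3 288 and 259, and Rprl2 14.5 and 19.5, and the list of 8 measured genes had a median of -0.17 (-0.078 at the same FPKM sum).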
